A study of Homo sapiens with 12 samples.

Results

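Knockdown of SIK3 was compared with a control siRNA in PANC-1 cells, a human line from a pancreatic ductal adenocarcinoma, after 4 h of TNF-α at 100 ng/mL. The comparison uses 4 of the 12 libraries of the series. In 2 of them the name of the deposited count table holds the words SIK3 and 4h, and these are called SIK3 siRNA here. The other 2 hold Scr1 and 4h, and these are called control siRNA. Both groups had the same line, dose of TNF-α and 72 h of reverse transfection, and each holds 2 biological replicates by its labels, numbered 1 and 2. The labels name a single siRNA against the target, written SIK3 among the sample characteristics and AS1 in the titles, and a single line, so neither a second siRNA nor a second line stands beside these values. Sample titles and table names do not match for 8 of the 12 libraries, in 4 of the 6 groups. By title the SIK3 siRNA libraries of this comparison are also SIK3 siRNA with TNF for 4 h, but the control libraries are titled control siRNA with TNF for 30 min. Groups here follow the table names, in which CLM was read as unstimulated by elimination. Values for the pair that the titles name are given at the end.

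Salt-inducible kinases are relatives of AMP-activated protein kinase that are switched on by the kinase LKB1, encoded by STK11, and switched off by protein kinase A. They phosphorylate CRTC coactivators and class IIa histone deacetylases, which keeps both in the cytoplasm, away from the transcription factors CREB and MEF2. TNF-α acts through the receptor TNFR1 to activate NF-κB, whose targets include its own inhibitors, chemokines, adhesion receptors and survival genes, and it can also start cell death when these targets are not made.

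The 4 libraries held 14874894 and 18118651 reads in genes with SIK3 siRNA, against 17448085 and 13535825 with control siRNA, within the range of all 12 libraries (13535825 to 22699756). Reads that fell in no annotated gene made up 16.5 and 17.1% of all reads with SIK3 siRNA, against 10.2 and 8.98% with control siRNA. Over the 10 other libraries they made up 8.35 to 10.5%. All reads include multimapping ones, whose share varied widely. Per 100 reads in genes, the no-feature reads were 24.5 and 27.8 with SIK3 siRNA, against 13.7 and 21.5 with control siRNA. On this scale SIK3 siRNA replicate 2 in unstimulated cells stood at 22.2, so replicate 2 stood less apart. More genes had at least 1 count with SIK3 siRNA, 25281 and 26796, against 24211 and 23651 with control siRNA. The SIK3 siRNA libraries of the other times held 24096 to 25399 such genes. Multimapping reads were 5.42 and 10.2% with SIK3 siRNA, against 4.94 and 41.5% with control siRNA. The 5 other replicate 2 libraries of the series held 27.8 to 45.3%, so SIK3 siRNA replicate 2 at 4 h stands apart from its number in this share. The part of these shares in the results below was not tested. All 10 markers of PANC-1 and ductal cells (keratins, VIM and others) were measured, at a summed 12735 and 11744 CPM (counts scaled to a total of 1000000 reads in genes, with TMM factors) with SIK3 siRNA, against 14981 and 13656 with control siRNA. Leukocyte markers summed to 5.31 and 4.52 CPM with SIK3 siRNA, against 4.92 and 4.35 CPM with control siRNA, with 1 of 11 high enough to be tested and 6 or 7 of them at 0 in each library. Of 6 endothelial markers 1 was tested, and they summed to 0.531 and 1.32 CPM, against 1.27 and 1.03 CPM. Acinar and islet markers summed to at most 0.332 CPM in any library, with none of 10 tested. Fibroblast markers summed to 33.1 and 37.7 CPM with SIK3 siRNA, against 18.6 and 16.3 CPM with control siRNA, and of 7 genes 4 were tested, 2 of them higher and 1 lower.

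The siRNA target SIK3 (ENSG00000160584, GRCh38 chromosome 11, 116843402 to 117098437, minus strand) was at 18.3 and 22.8 CPM in SIK3 siRNA replicates 1 and 2, against 34.4 and 65.2 CPM with control siRNA. Both SIK3 siRNA libraries lay below both controls, and replicate 2 was the higher one in each group. The fitted difference was −1.25 on the log2 scale (SE 0.111, adjusted p = 3.54e-09), a 2.37-fold reduction. Over all times SIK3 ran from 16.3 to 18.3 CPM in replicate 1 and from 22.4 to 24.03 CPM in replicate 2 of the SIK3 siRNA libraries. In the control siRNA libraries it ran from 34.3 to 42.5 CPM in replicate 1 and from 60.4 to 68.7 CPM in replicate 2, so the 6 libraries named SIK3 lay below the 6 named Scr1. The reduction at 4 h did not differ beyond the spread between libraries from that in unstimulated cells (−1.25, adjusted p of the difference = 0.987) or at 30 min (−1.42, 0.535).

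The other kinases of the family were not lower. SIK1 (ENSG00000142178, chromosome 21, 43414483 to 43427189, minus strand), itself a target of CREB, was at 13.7 and 14.4 CPM with SIK3 siRNA, against 1.94 and 2.45 CPM with control siRNA, a rise of 6.41-fold (2.68 on the log2 scale, SE 0.168, adjusted p = 1.27e-11). SIK2 (ENSG00000170145, chromosome 11, 111602391 to 111730853, plus strand) was at 49.9 and 58.3 CPM, against 42.2 and 48.5 CPM, a rise of 0.25 on the log2 scale (SE 0.0737, adjusted p = 0.00624). SIK1 did not overlap between the groups, and for SIK2 the lower SIK3 siRNA library lay just above the higher control. How reads were shared between SIK1 and its near-identical copy is not known. The SIK2 call was lost without the replicate block (adjusted p = 0.313), without SIK3 siRNA replicate 1 (adjusted p = 0.0589) or without control siRNA replicate 2 (adjusted p = 0.0866).

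**Figure D1:**
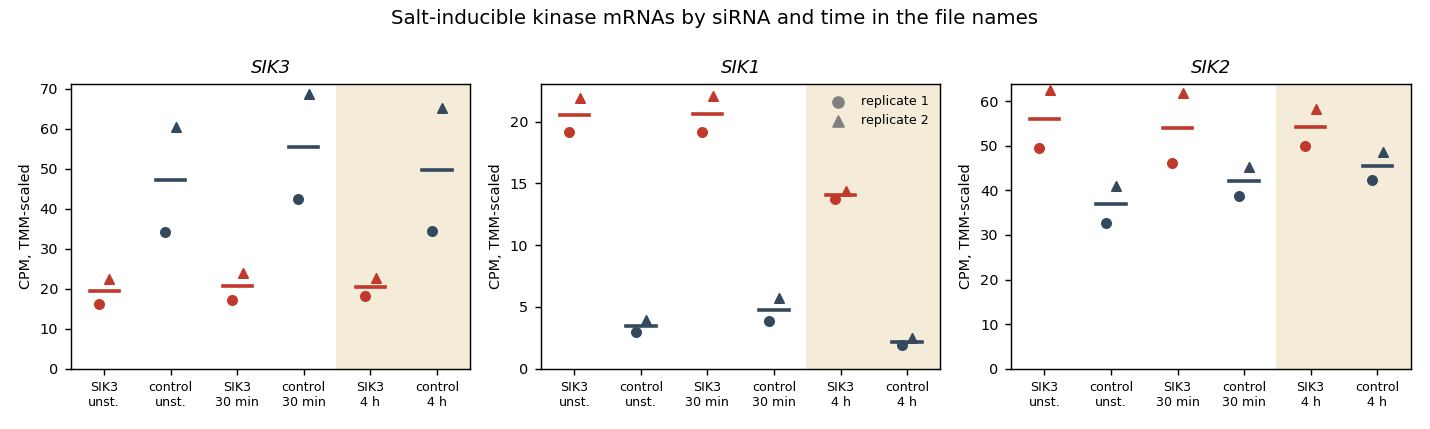
Each panel plots CPM (TMM-scaled, linear axis from 0) of 1 kinase in the 12 libraries, grouped by siRNA and time in the table names, with circles for replicate 1, triangles for replicate 2, bars for means and the 4 h groups shaded. SIK3 was lower and SIK1 higher with SIK3 siRNA at every time, and at 4 h SIK3 stood at 18.3 and 22.8 CPM with SIK3 siRNA, against 34.4 and 65.2 CPM with control siRNA.

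Among the 16695 genes tested, 9813 (58.8%) passed an adjusted p of 0.05 in the 4 h comparison. Of these 4958 (29.7% of all tested) were higher with SIK3 siRNA and 4855 (29.1%) lower, and the median gene stood at 0.03 on the log2 scale. Scaling by library totals moved the split to 5875 higher and 4146 lower, and the Wald test of DESeq2 to 4013 and 4627. A call together with at least a 2-fold difference was made for 3346 genes (20%), 1932 higher (11.6%) and 1414 lower (8.47%). The call alone therefore says little about any 1 gene, and lists are read below against these shares. In 68.8% of all genes tested the libraries of the groups did not overlap. Of the 9813 called genes 9798 went the same way in replicate pair 1 and replicate pair 2. The same libraries made the calls, which favour genes whose pairs agree, so this count is no independent support. Within a bulk sample, fewer cells of a kind and less RNA per cell cannot be told apart.

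Several of the largest rises were of genes with almost no counts in the control. SLC8A2, a sodium-calcium exchanger, had 1.19 and 1.32 CPM with SIK3 siRNA and no count in the control libraries, and was at least 12.3-fold higher (against 3 counts over the group). CACNG7, a regulatory subunit of AMPA receptors, was at 2.99 and 4.91 CPM with SIK3 siRNA, against 0.121 and 0.158 CPM, and the neuronal gene CEND1 at 3.32 and 6.12 CPM, against 0.121 and 0.0791 CPM. ARC, an activity-regulated gene of neurons and a known CREB target, stood at 3.65 and 5.73 CPM with SIK3 siRNA, against 0.121 and 0.237 CPM with control siRNA. In all these genes both SIK3 siRNA libraries lay above both controls. Higher levels were reached by ADAMTS1, a secreted metalloprotease, at 38.2 and 40.3 CPM, against 2.12 and 1.58 CPM (4.38 on the log2 scale, SE 0.146, adjusted p = 6.48e-16). SNAI2, a repressor of epithelial genes, was at 5.64 and 4.69 CPM with SIK3 siRNA, against 0.121 and 0.395 CPM with control siRNA. Of the 12 largest rises 7 were of protein-coding genes, and 3 had no count in the control libraries.

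The largest falls held more protein-coding genes, 10 of 12. SELE, which encodes E-selectin, an adhesion receptor that TNF induces in endothelium, was at 6.77 and 5.13 CPM with SIK3 siRNA, against 225 and 174 CPM with control siRNA (−5.07 on the log2 scale, SE 0.114, adjusted p = 2.6e-18). RASSF5, a Ras effector that binds the MST kinases, was at 7.70 and 10.6 CPM, against 123 and 117 CPM (−3.71, SE 0.138, adjusted p = 3.1e-15). VCAM1, the receptor for the integrin VLA-4, was at 0.597 and 1.32 CPM with SIK3 siRNA, against 20.03 and 13.4 CPM with control siRNA (−4.04, SE 0.265, adjusted p = 2.79e-11). For these genes every SIK3 siRNA library lay far below every control. RAET1L, a ligand of the NK cell receptor NKG2D, was at 0.199 and 0.221 CPM with SIK3 siRNA, against 2.73 and 2.85 CPM, and MGAM2, ANKRD22, HUNK, PDZD2 and PIK3R5 were each at 0.331 CPM or less in both SIK3 siRNA libraries.

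Genes of the kinase pathway itself moved unevenly, with 6 of 19 higher and 7 lower and a median of −0.06 on the log2 scale, whose sign changed with the processing (−0.22 to 0.09). STK11, the upstream kinase LKB1, rose to 166 and 153 CPM with SIK3 siRNA, against 96.8 and 91.9 CPM with control siRNA (0.76 on the log2 scale). Its scaffold CAB39 fell to 243 and 227 CPM, against 285 and 269 CPM (−0.24, a call lost without the replicate block, adjusted p = 0.0829). Among substrates and their partners, CREB1 fell to 69.2 and 67.3 CPM, against 132 and 118 CPM (−0.87), while its relatives rose, ATF1 to 52.4 and 49.9 CPM, against 35.9 and 32.3 CPM (0.59), and CREM to 19.4 and 18.6 CPM, against 8.38 and 6.96 CPM (1.32). The groups did not overlap for any of these genes. The class IIa deacetylase HDAC7 fell (−0.71), HDAC5 and HDAC9 stood at −0.06 and −0.09 and were not called, and the coactivator gene CRTC3 was not called (0.12). CRTC2 was called lower (−0.46), but it differed more between replicates than between siRNAs, at 4.18 and 14.003 CPM with SIK3 siRNA, against 6.13 and 18.97 CPM with control siRNA, and its call was lost without control siRNA replicate 2 (adjusted p = 0.14).

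Targets of CREB and its CRTC coactivators were mostly higher. Of 20 tested members 16 rose and 2 fell, 12 of them by at least 2-fold and all of those upward, and the median was 1.44 on the log2 scale, against 0.03 over all genes. The median was 1.36 in replicate pair 1 and 1.24 in pair 2. SCG2, a secretory granule protein, was at 39.4 and 38.4 CPM with SIK3 siRNA, against 2.67 and 4.19 CPM with control siRNA (3.54 on the log2 scale, SE 0.133, adjusted p = 3.79e-15). NR4A1, an orphan nuclear receptor, was at 13.7 and 16.8 CPM, against 1.70 and 3.16 CPM (2.68, adjusted p = 1.63e-10). The EGF receptor ligand AREG was at 19.8 and 15.6 CPM, against 5.16 and 4.51 CPM (1.87, adjusted p = 5.05e-11). In each of these the SIK3 siRNA libraries lay several-fold above the controls with no overlap. INHBA, a subunit of activin, stood at 20.05 and 22.6 CPM, against 7.83 and 10.1 CPM, and the phosphatase gene DUSP1 at 362 and 405 CPM, against 186 and 205 CPM. The members that fell were the coactivator CRTC2 itself and PDE4D, which degrades cAMP (−0.43), a call lost without SIK3 siRNA replicate 2 (adjusted p = 0.0556) or without control siRNA replicate 2 (adjusted p = 0.159). PPARGC1A and PDE4B were not called (−0.54 and 0.38). The list also stood high without TNF, at a median of 1.25 in unstimulated cells, and 6 of the 20 members had a different effect at 4 h, 5 of them more positive.

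Promoter sequences of SIK1 and AREG are shown because both genes rose and both hold the core of the cAMP response element, the letters TGACG on either strand. They are the 250 bases before the RefSeq start on GRCh38.p14, written 5′ to 3′ on the strand of the gene, with matches in capitals. SIK1 lies on the minus strand (chr21:43427132-43427381) and AREG on the plus strand (chr4:74444886-74445135).
SIK1: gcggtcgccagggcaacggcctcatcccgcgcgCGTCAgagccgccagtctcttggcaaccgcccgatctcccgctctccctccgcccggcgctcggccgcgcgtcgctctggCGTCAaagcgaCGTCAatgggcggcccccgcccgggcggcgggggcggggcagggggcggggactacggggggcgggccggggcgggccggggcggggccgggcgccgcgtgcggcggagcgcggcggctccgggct
AREG: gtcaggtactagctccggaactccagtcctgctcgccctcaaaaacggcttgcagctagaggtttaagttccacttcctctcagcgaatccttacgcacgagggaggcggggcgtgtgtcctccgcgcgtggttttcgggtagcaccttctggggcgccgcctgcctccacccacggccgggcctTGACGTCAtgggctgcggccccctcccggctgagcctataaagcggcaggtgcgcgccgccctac
The core occurs in 9 of the 17 promoters of the list that the RefSeq table holds (52.9%), and in 21.7% of all 27305 promoters of that table. All 3 matches of SIK1 read on the other strand as CGTCA, between 126 and 217 bases before the start. In AREG a match on each strand overlaps to form the palindrome TGACGTCA. A match of letters is a description and shows no binding.

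Immediate early genes, a class of briefly made transcription factors and phosphatases, went both ways. Of 34 tested 18 rose and 10 fell, at a median of 0.26. DUSP5, a nuclear phosphatase of ERK, was at 549 and 563 CPM with SIK3 siRNA, against 98.2 and 99.4 CPM with control siRNA (2.49 on the log2 scale, SE 0.0575, adjusted p = 3.32e-18). JUND rose to 40.9 and 54.96 CPM, against 17.2 and 21.1 CPM, and JUN to 494 and 476 CPM, against 321 and 306 CPM. For all of these the groups were apart. Lower were MAFF, a small MAF factor, at 68.2 and 60.6 CPM, against 172 and 157 CPM (−1.35), and the phosphatase gene DUSP2, at 7.83 and 6.78 CPM, against 46.5 and 22.6 CPM (−2.20). JUNB, BTG2 and ZFP36 were not called (−0.07, 0.06 and 0.04).

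EGF receptor ligands and feedback genes of the ERK pathway had 12 of 23 members higher and 7 lower, at a median of 0.58. Among ligands, NRG1 (neuregulin) was at 132 and 185 CPM with SIK3 siRNA, against 45.1 and 61.1 CPM with control siRNA (1.57 on the log2 scale), and EREG at 273 and 269 CPM, against 169.7 and 139 CPM (0.82). TGFA went the other way, at 3.32 and 2.92 CPM, against 13.7 and 10.7 CPM (−1.97). None of the 3 ligands overlapped between groups. Of the feedback inhibitors, SPRY2 rose to 70.9 and 56.8 CPM, against 23.7 and 19.6 CPM (1.55), SPRED1 fell to 102.3 and 98.3 CPM, against 144 and 132 CPM (−0.46), and SPRY4 was not called (0.03). The ERK-responsive factors ETV1 and ETV5 fell (−1.15 and −0.82).

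On the receptor side of TNF signalling, 3 of 20 members of the TNF receptor complex rose and 11 fell, with a median log2 difference of −0.25. TNFRSF1A, which encodes TNFR1, was at 28.5 and 31.9 CPM with SIK3 siRNA, against 47.2 and 57.4 CPM with control siRNA (−0.79). TNFRSF1B, which encodes TNFR2, was at 25.1 and 29.3 CPM, against 77.03 and 76.8 CPM (−1.51). Both receptors were apart between groups. Downstream, the kinase genes MAP3K7 (TAK1) and IKBKB (IKKβ) moved in opposite directions (0.43 and −0.52), and CASP8, TRADD and RNF31 were not called (0.02, 0.02 and 0.03). Of the 5 NF-κB subunits, NFKB2 fell to 296 and 333 CPM, against 534 and 509.9 CPM (−0.74), and NFKB1 and RELB fell by less (−0.37 and −0.45). RELA and REL, the other subunits, were not called (0.10 and 0.14), though REL was called without SIK3 siRNA replicate 2 (0.26, adjusted p = 0.0483).

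Inhibitors and feedback genes of NF-κB were lower as a list. Of 16 tested 0 rose and 12 fell, 9 of them by at least 2-fold, at a median of −1.03 (−1.10 in replicate pair 1 and −0.85 in pair 2). TNFAIP3 (A20), a ubiquitin-editing enzyme that ends NF-κB signalling, was at 105.4 and 125 CPM with SIK3 siRNA, against 271 and 281 CPM with control siRNA (−1.27 on the log2 scale, SE 0.0747, adjusted p = 5.02e-12). CYLD, a deubiquitinase with the same target chains, was at 153 and 151 CPM, against 371 and 310.2 CPM (−1.16, SE 0.0631, adjusted p = 1.33e-12). TRAF1, an adaptor of TNFR2, was at 104.1 and 99.2 CPM, against 319.5 and 304 CPM (−1.62, SE 0.0620, adjusted p = 5.09e-15). In these 3 genes the SIK3 siRNA libraries lay more than 2-fold below either control. TNIP1, TNFAIP2 and the inhibitor NFKBIE fell (−1.02, −1.19 and −1.05 on the log2 scale). NFKBIZ, NFKBIB, OTUD7B and N4BP1 were not called, and stood between −0.04 and 0.11.

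Cytokines and chemokines fell in 20 of 27 tested members and rose in 4, at a median of −0.70. CCL5 (RANTES), which attracts T cells, was at 36.8 and 41.4 CPM with SIK3 siRNA, against 341 and 320.4 CPM with control siRNA (−3.09 on the log2 scale, SE 0.0855, adjusted p = 3.78e-17). CX3CL1 (fractalkine), a membrane-bound chemokine, was at 231 and 349 CPM, against 549 and 641 CPM (−1.06, SE 0.0745, adjusted p = 8.07e-11). The monocyte attractant CCL2 was at 795 and 1186 CPM, against 1359 and 1840.3 CPM (−0.70, SE 0.0510, adjusted p = 1.41e-10). Each was lower in both SIK3 siRNA libraries than in either control, though the CCL2 call was lost without the replicate block (adjusted p = 0.0629). LTB (lymphotoxin β) stood at 4.51 and 4.13 CPM, against 28.3 and 22.5 CPM, and the TNF gene itself at 3.05 and 6.06 CPM, against 12.02 and 19.2 CPM (−1.77). The chemokine gene CCL20 fell (−1.02). IL11, a cytokine of the IL-6 family, rose to 9.43 and 9.54 CPM, against 1.58 and 0.474 CPM (3.12), and IL18 to 93.1 and 80.3 CPM, against 58.6 and 44.7 CPM (0.75). The neutrophil attractant CXCL8 was at 261 and 232 CPM, against 262 and 171 CPM, with overlapping groups. Its call (0.21) was lost without SIK3 siRNA replicate 2 (adjusted p = 0.56) or without control siRNA replicate 2 (adjusted p = 0.425).

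Adhesion receptors fell in 11 of 15 tested members and rose in 2, at a median of −0.57. After SELE and VCAM1, already given, ICAM1, the ligand of leukocyte LFA-1, was at 941 and 1319.5 CPM with SIK3 siRNA, against 2397 and 2913 CPM with control siRNA (−1.24 on the log2 scale, SE 0.0519, adjusted p = 1.84e-14). SDC4, a heparan sulfate proteoglycan, was at 720.0 and 819 CPM, against 1845 and 1794 CPM (−1.24, SE 0.0495, adjusted p = 9.21e-15). Both lay below the controls with no overlap. The junction proteins F11R (JAM-A) and NECTIN2 fell (−0.66 and −0.57), and PVR, another nectin-like protein, was also lower (−0.39). ALCAM was at 189 and 193 CPM with SIK3 siRNA, against 211 and 174 CPM with control siRNA, and was not called.

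The SELE and VCAM1 promoters are shown because these genes fell most in the list and are its only members among the 14 with a promoter in the table to hold the searched NF-κB site, GGGNNTTNCC on either strand. They are the 250 bases before the RefSeq start on GRCh38.p14, 5′ to 3′, with the match in capitals. SELE lies on the minus strand (chr1:169734080-169734329) and VCAM1 on the plus strand (chr1:100719492-100719741).
SELE: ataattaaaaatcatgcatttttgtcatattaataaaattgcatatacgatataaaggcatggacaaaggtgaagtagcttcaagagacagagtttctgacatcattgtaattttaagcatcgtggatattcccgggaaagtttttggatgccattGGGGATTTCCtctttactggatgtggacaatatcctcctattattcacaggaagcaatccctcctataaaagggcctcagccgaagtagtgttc
VCAM1: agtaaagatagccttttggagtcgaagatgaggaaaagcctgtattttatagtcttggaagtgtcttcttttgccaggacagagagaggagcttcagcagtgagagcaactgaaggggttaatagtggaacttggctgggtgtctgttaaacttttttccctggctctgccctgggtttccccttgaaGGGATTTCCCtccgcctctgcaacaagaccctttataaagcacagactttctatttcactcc
The site lies 94 bases before the start in SELE and 62 in VCAM1. It occurs in 2 of 14 adhesion promoters (14.3%), in 3 of 15 of the NF-κB feedback list (20%), in 9 of 19 of the cytokine list (47.4%) and in 5.08% of all 27305 promoters. No match says only that these letters are not in the window.

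**Figure D2:**
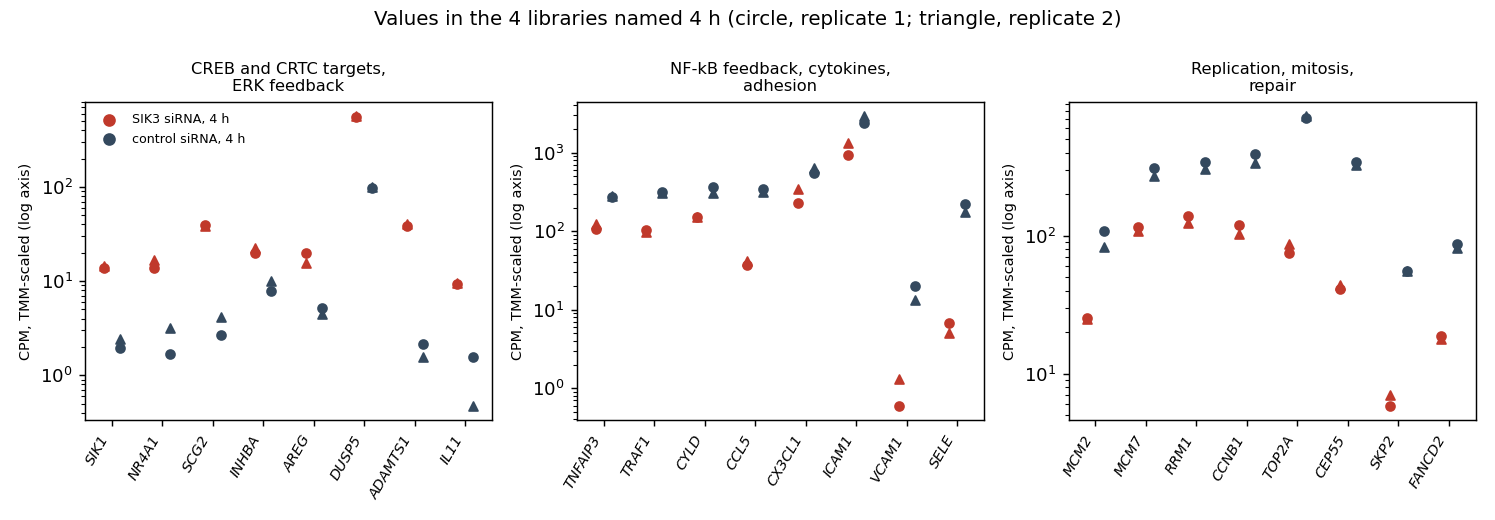
CPM (TMM-scaled, log axis) of 24 genes in the 4 libraries named 4 h, with SIK3 siRNA to the left of control siRNA for each gene, circles for replicate 1 and triangles for replicate 2. The genes of the left panel lie higher with SIK3 siRNA and those of the middle and right panels lower. In none of the 24 do the groups overlap, but the genes were chosen after their values were seen. Over all genes tested 68.8% did not overlap.

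Genes known for cell survival fell in 11 of 14 tested members and rose in 2, at a median of −0.92. XIAP, an inhibitor of caspases, was at 85.1 and 91.2 CPM with SIK3 siRNA, against 356 and 308 CPM with control siRNA (−1.91 on the log2 scale, SE 0.0636, adjusted p = 6.48e-16). BIRC3 (cIAP2), a ubiquitin ligase of the TNF receptor complex, was at 2078 and 2050.3 CPM, against 4246 and 3564 CPM (−0.91). BCL2L1, which encodes BCL-XL, was at 144 and 202 CPM, against 304 and 388 CPM (adjusted p = 2.5e-12). The groups were apart for each of them. MCL1, a relative of BCL-XL, and CFLAR (cFLIP), which blocks caspase-8, fell (−0.81 and −0.98). BCL2L2 rose by 0.56.

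Genes that carry out or start cell death fell as well, in 16 of 26 tested members, with 3 higher and a median of −0.51. FAS, a death receptor, was at 41.4 and 41.2 CPM with SIK3 siRNA, against 153 and 130.4 CPM with control siRNA (−1.78 on the log2 scale, SE 0.0721, adjusted p = 1.2e-14). APAF1, the scaffold of the apoptosome, was at 17.7 and 20.2 CPM, against 49.8 and 51.7 CPM (−1.42), and BCL2L11 (BIM) at 22.4 and 27.5 CPM, against 70.7 and 80.96 CPM (−1.62). All 3 were lower in each SIK3 siRNA library. The caspase genes CASP8 and CASP10 were not called. BAD and BOK rose by 0.57 and 0.43, and BAK1 was not called (0.06).

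Antigen presentation genes had 0 of 24 members higher and 18 lower, at a median of −0.35. HLA-B, a classical class I gene, was at 106.3 and 106.8 CPM with SIK3 siRNA, against 185 and 149 CPM with control siRNA (−0.64 on the log2 scale, adjusted p = 1.12e-07). HLA-F was at 10.4 and 9.54 CPM, against 36.9 and 26.4 CPM (−1.66), and TAP1, which carries peptides into the endoplasmic reticulum, at 192 and 187 CPM, against 309 and 264 CPM (−0.59). None of these overlapped between groups. The trimming peptidases ERAP1 and ERAP2 fell (−0.98 and −0.89), as did the immunoproteasome subunit PSMB9 (−1.17). HLA-E, TAPBP and the regulator NLRC5 were not called (0.11, −0.04 and 0.10). HLA genes are near-identical copies of each other, so how the authors' counting divided reads among them is uncertain.

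Immune ligands of tumour cells were lower in 8 of 14 and higher in 2. CD274 (PD-L1) was at 2.39 and 2.98 CPM with SIK3 siRNA, against 6.74 and 5.06 CPM with control siRNA (−1.11 on the log2 scale), and NT5E (CD73), which makes adenosine, at 209 and 199.6 CPM, against 329 and 317 CPM (−0.66). Of the NKG2D ligands, ULBP1 rose to 14.1 and 15.5 CPM, against 5.77 and 7.59 CPM (1.16), and MICA rose by 0.59. RAET1L, given among the largest falls, was lower, and MICB and ULBP3 were not called (−0.02 and −0.07). ULBP1, MICA, NT5E and CD274 were all apart between groups.

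Interferon regulators and their targets went both ways, as did genes over all those tested (29.7% called higher and 29.1% lower). IRF1, a direct target of NF-κB, was at 258 and 287 CPM with SIK3 siRNA, against 792 and 805 CPM with control siRNA (−1.55 on the log2 scale, SE 0.0525, adjusted p = 7.4e-16), and STAT5A at 95.5 and 92.6 CPM, against 227 and 179 CPM (−1.10). STAT3 and IRF3 were higher (0.48 and 0.86). Over the IRF and STAT factors 5 of 14 rose and 3 fell. Of 40 interferon-stimulated genes 13 rose and 21 fell, at a median of −0.48. Among those that rose, IFI6 was at 92.7 and 72.8 CPM, against 16.3 and 13.9 CPM (2.45), MX1 at 75.005 and 66.98 CPM, against 33.2 and 28.3 CPM (1.21), and IFIT2 at 283 and 284 CPM, against 186 and 169 CPM (0.68). Among those that fell, GBP4 was at 32.7 and 46.1 CPM, against 154 and 150.2 CPM (−1.95), OASL at 8.96 and 7.11 CPM, against 33.9 and 29.3 CPM (−1.98), and APOL6 at 106.6 and 126 CPM, against 291 and 269.5 CPM (−1.27). The groups did not overlap for any of these 6 genes, so antiviral genes lay on both sides. IFIH1 (MDA5), a sensor of viral RNA, fell (−0.87), and OAS2 and OAS3 were not called (−0.01 and 0.01).

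Genes of DNA replication were lower almost throughout. Of 41 tested 39 fell, 30 of them by at least 2-fold, and 1 rose, at a median of −1.23 (−1.22 in each replicate pair). MCM2, a subunit of the replicative helicase, was at 25.2 and 24.9 CPM with SIK3 siRNA, against 108.4 and 82.8 CPM with control siRNA (−1.92 on the log2 scale, SE 0.0805, adjusted p = 2.05e-14). MCM7, of the same helicase, was at 115 and 107.6 CPM, against 312 and 273 CPM (−1.39), and RRM1, the large subunit of ribonucleotide reductase, at 139.7 and 123 CPM, against 341 and 305 CPM (−1.30). Both SIK3 siRNA libraries lay below both controls in each. GINS1, of the helicase complex, and RPA3, which binds single-stranded DNA, fell (−1.85 and −1.60). The member that rose was POLD3, a subunit of DNA polymerase δ (0.21), a call lost without any 1 of the 4 libraries (adjusted p from 0.0847 to 0.151). Its catalytic partner POLD1 was not called (−0.18). Replication-dependent histones, made in S phase, fell in 19 of 20 tested and rose in 0, at a median of −1.05. The linker histone H1-2 was at 110.2 and 125 CPM, against 227 and 258 CPM (−1.04), and H4C5 at 17.6 and 15.4 CPM, against 61.5 and 43.6 CPM (−1.66). Histone genes of a class are close copies, so reads may be divided among them.

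Mitosis genes had the lowest median of the lists. Of 47 tested 45 fell, 42 by at least 2-fold, and 0 rose, at a median of −1.66 (−1.67 in each replicate pair). TOP2A, which untangles chromosomes, was at 75.5 and 87.3 CPM with SIK3 siRNA, against 719 and 734 CPM with control siRNA (−3.16 on the log2 scale, SE 0.0652, adjusted p = 1.13e-18). CEP55, which acts in the final separation of daughter cells, was at 41.2 and 43.6 CPM, against 345 and 324 CPM (−2.98, SE 0.0648, adjusted p = 1.64e-18). CCNB1, the cyclin that partners CDK1 at mitotic entry, was at 119 and 102.1 CPM, against 389 and 337 CPM (−1.71, SE 0.0523, adjusted p = 1.7e-16). In all 3 the replicates were close to each other and far from the other group. HMMR, CENPF and ECT2 fell (−2.65, −2.35 and −1.85). PRC1 and BUB3 were not called (0.07 and −0.02).

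Among regulators upstream of these genes 23 of 31 fell and 1 rose, at a median of −0.82. SKP2, the ubiquitin ligase subunit that marks the inhibitor p27 for destruction, was at 5.84 and 6.95 CPM with SIK3 siRNA, against 55.1 and 55.8 CPM with control siRNA (−3.10 on the log2 scale, SE 0.102, adjusted p = 5.15e-16). CDK6 was at 257 and 298 CPM, against 715 and 833 CPM (−1.48), and MYBL2 (B-MYB), which drives late cell cycle genes, at 32.9 and 50.8 CPM, against 81.8 and 121 CPM (−1.28). The 3 genes were apart between groups. Of the kinase inhibitors, CDKN1A (p21) fell to 64.7 and 74.2 CPM, against 164 and 176 CPM (−1.29), and CDKN2C (p18) also fell (−1.83). Cyclin D1 (CCND1) and p27 (CDKN1B) were not called (0.06 and 0.07). Homologous recombination and Fanconi anaemia genes, which repair breaks and crosslinks, fell in 24 of 26 and rose in 0, at a median of −1.17. FANCD2 was at 18.8 and 17.97 CPM, against 86.7 and 80.96 CPM (−2.19), and BRCA1 at 34.98 and 35.01 CPM, against 106.1 and 104.0 CPM (−1.59), with no overlap in either.

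TOP2A and CEP55 promoters are shown because both genes fell and both hold the cell cycle genes homology region, TTTGAA on either strand, known as a binding element of the DREAM and MuvB complexes. The 250 bases before the RefSeq start are given on GRCh38.p14, 5′ to 3′, with matches in capitals. TOP2A lies on the minus strand (chr17:40417897-40418146) and CEP55 on the plus strand (chr10:93496362-93496611).
TOP2A: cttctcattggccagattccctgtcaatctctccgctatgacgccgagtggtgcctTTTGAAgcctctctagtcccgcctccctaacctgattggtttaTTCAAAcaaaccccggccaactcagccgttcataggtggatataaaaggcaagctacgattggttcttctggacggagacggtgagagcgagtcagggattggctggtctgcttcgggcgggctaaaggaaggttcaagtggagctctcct
CEP55: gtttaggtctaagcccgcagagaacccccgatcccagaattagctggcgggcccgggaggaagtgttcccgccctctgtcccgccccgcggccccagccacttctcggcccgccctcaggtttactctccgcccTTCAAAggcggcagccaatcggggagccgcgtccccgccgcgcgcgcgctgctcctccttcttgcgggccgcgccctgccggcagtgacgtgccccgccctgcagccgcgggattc
TOP2A holds 2 matches, 194 and 151 bases before the start, and CEP55 holds 1, 116 bases before it. The element is in 23 of 41 mitosis promoters of the table (56.1%), in 1 of 34 replication promoters (2.94%) and in 13.6% of all 27305.

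Targets of p53 were divided, with 7 of 23 higher, 12 lower and a median of −0.31. The shares over all genes tested were 29.7% higher and 29.1% lower. GDF15, a secreted stress factor, was at 19.8 and 18.6 CPM with SIK3 siRNA, against 7.28 and 5.06 CPM with control siRNA (1.65 on the log2 scale), TP53I3 at 46.99 and 41.3 CPM, against 20.6 and 16.05 CPM (1.28), and ZMAT3 rose by 1.03. MDM2, the ubiquitin ligase of p53, was at 93.5 and 102.7 CPM, against 151 and 169 CPM (−0.71). CDKN1A and FAS, given above, also fell, and the groups were apart in each gene named.

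Epithelial and mesenchymal genes did not move as blocks. Of 26 tested 6 rose and 13 fell, beside 29.7% higher and 29.1% lower over all genes tested. The epithelial cadherin CDH1 was at 28.1 and 31.1 CPM with SIK3 siRNA, against 81.5 and 86.9 CPM with control siRNA (−1.51 on the log2 scale), and the splicing factor ESRP1 at 1.73 and 2.21 CPM, against 8.13 and 9.88 CPM (−2.18). The mesenchymal filament gene VIM fell too, to 2134 and 2320.1 CPM, against 3998 and 3968 CPM (−0.84). The repressor gene SNAI1 rose to 7.23 and 10.1 CPM, against 2.37 and 4.27 CPM (1.40, a call lost without the replicate block, adjusted p = 0.0786), beside SNAI2. ZEB1, FN1 and KRT8 were not called (−0.03, −0.13 and 0.02).

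Of 31 collagens, laminins and integrins 9 rose and 14 fell, where 29.7% of all genes tested were called higher and 29.1% lower. The laminin receptor chains ITGA6 and ITGB4 fell (−1.43 and −1.33), ITGA6 to 208 and 212 CPM, against 587 and 552 CPM. LAMA4 rose to 76.1 and 77.2 CPM, against 26.9 and 28.8 CPM (1.47), and the broadly used integrin chain ITGB1 was not called (−0.05). Among 18 genes of the urokinase system and matrix proteases 5 rose and 7 fell, to be read against the same shares. Their median was 0.01, and its sign changed with the processing (−0.17 to 0.11). MMP14, a membrane metalloprotease, was at 21.9 and 21.4 CPM, against 6.80 and 6.72 CPM (1.68), PLAU (urokinase) fell (−0.48) and its receptor gene PLAUR rose by 0.75.

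The Hippo pathway had 11 of 23 members higher and 6 lower, at a median of 0.18. YAP1, its coactivator, was at 225 and 241 CPM with SIK3 siRNA, against 565 and 574 CPM with control siRNA (−1.29 on the log2 scale, SE 0.0505, adjusted p = 7.07e-15), and its paralogue WWTR1 (TAZ) at 371 and 443 CPM, against 245 and 298 CPM (0.59). Their DNA-binding partner TEAD1 rose to 291 and 384 CPM, against 166 and 229 CPM (0.78), and the target CCN2 (CTGF) to 1046 and 853 CPM, against 430.4 and 452 CPM (1.11). The coactivators thus lay on opposite sides, YAP1 below and WWTR1 above the controls, without overlap. The kinase gene LATS2 was not called (0.03).

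Cholesterol and fatty acid synthesis had 5 of 29 members higher and 15 lower, at a median of −0.25. INSIG1, which retains SREBP in the endoplasmic reticulum, was at 68.03 and 52.9 CPM with SIK3 siRNA, against 305 and 267 CPM with control siRNA (−2.25 on the log2 scale, SE 0.0599, adjusted p = 2.09e-17). FASN, fatty acid synthase, and the sterol oxidase gene MSMO1 rose by 0.98 and 1.27. The unfolded protein and integrated stress response had 11 of 24 members higher and 7 lower. ATF4 was at 791 and 759.6 CPM, against 442 and 419 CPM (0.85), HSP90B1 rose by 0.48, and EDEM1, which directs misfolded proteins to degradation, fell to 24.3 and 24.1 CPM, against 103.5 and 101.4 CPM (−2.08). INSIG1, ATF4 and EDEM1 were apart between groups. Mitochondrially encoded mRNAs differed between replicates more than between siRNAs, with a summed 2655 and 9683 CPM with SIK3 siRNA, against 2082 and 10078 with control siRNA. Of 13 tested 2 rose and 2 fell.

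**Figure D3:**
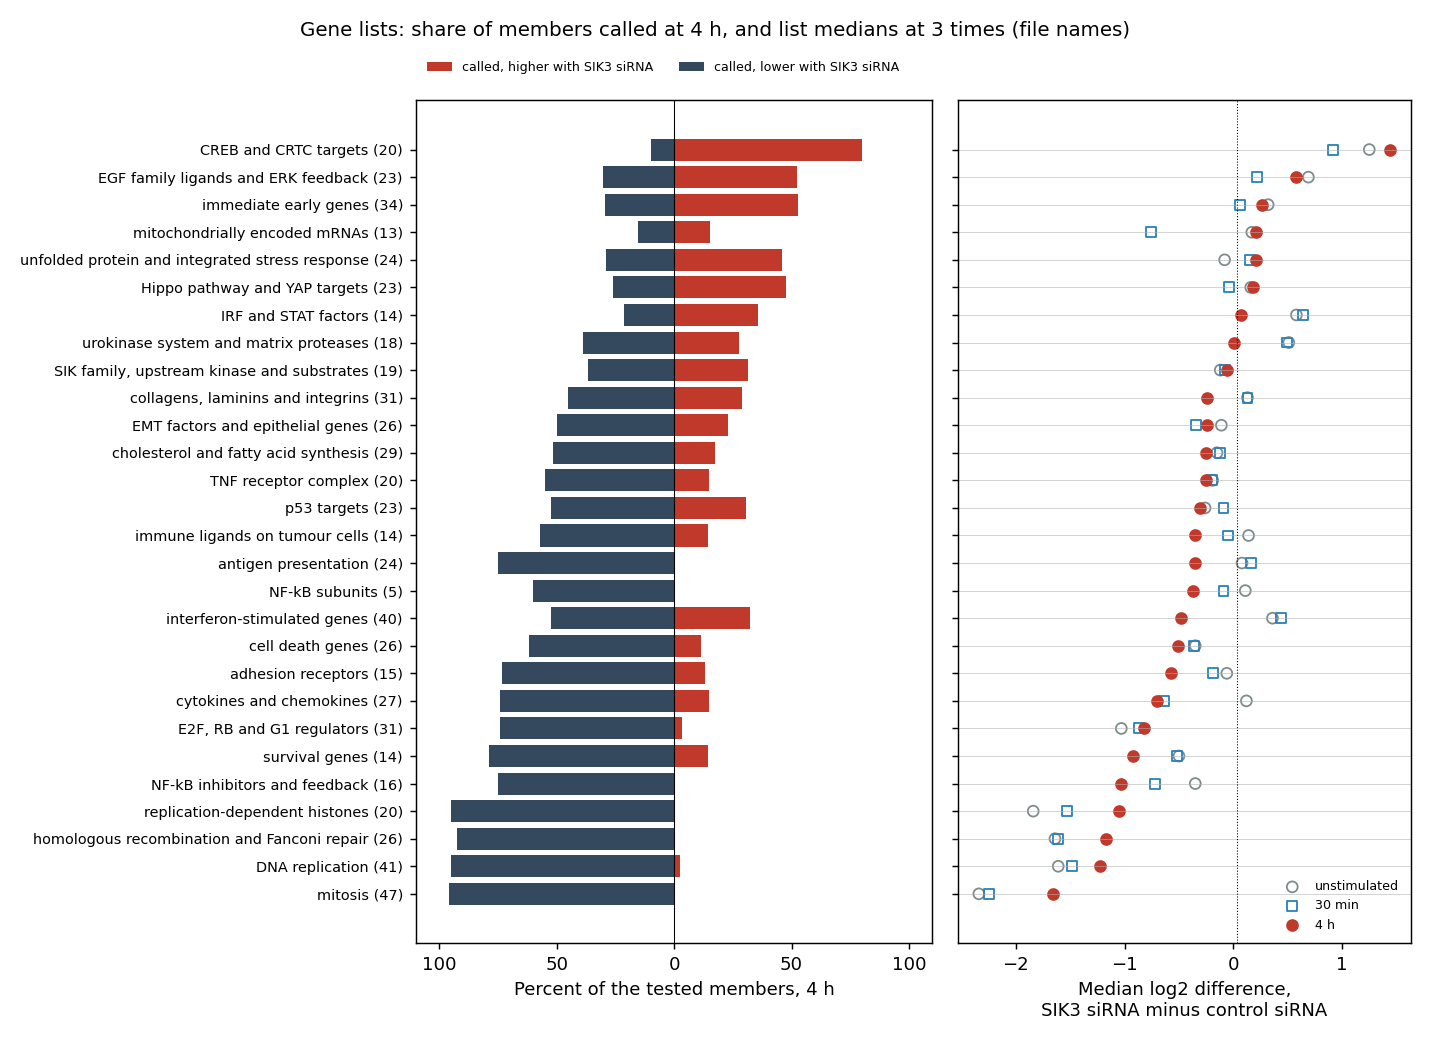
Left, percent of the tested members of each list (number in brackets) called higher (right of 0) or lower (left of 0) with SIK3 siRNA at 4 h. Right, the median log2 difference of each list, SIK3 siRNA minus control siRNA, unstimulated (open circles), at 30 min (squares) and at 4 h (filled), with the median of all genes at 4 h (0.03) dotted, from mitosis at −1.66 to CREB and CRTC targets at 1.44.

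Differences at 4 h were then set beside those of the same siRNAs in the libraries named unstimulated and 30 min, which share no library with them. The siRNA comparison called 9746 genes (58.4%) in unstimulated cells and 9771 (58.5%) at 30 min. Called at 4 h and in unstimulated cells were 7806 genes, 7615 of them in the same direction, which is 77.6% of the 4 h calls and 78.1% of the unstimulated calls. At 30 min 7513 were shared in direction, 76.6% of the 4 h calls and 76.9% of the 30 min calls. Across all 16695 genes tested, the log2 differences at 4 h correlated with those in unstimulated cells at a Pearson r of 0.755. With those at 30 min the r was 0.747. Across the 10503 genes with a mean of at least 5 CPM these were 0.878 and 0.873. They describe genes, which are not independent. A test of the difference between effects called 1996 genes against unstimulated cells (12%), 1075 more positive (6.44%) and 921 more negative (5.52%) at 4 h, and 2280 against 30 min (13.7%), 1324 more positive (7.93%) and 956 more negative (5.73%). Both splits turned with DESeq2 size factors, to 895 more positive and 1135 more negative against unstimulated cells and to 1143 and 1323 against 30 min. They turned likewise with the Wald test of DESeq2, to 653 and 922 and to 820 and 1011. Without control siRNA replicate 1 the counts were 1283 and 1386, and without the replicate block they were 261 (120 more positive, 141 more negative) and 236 (110 and 126). The SIK3 siRNA libraries at 4 h are those with the high share of reads in no gene, whose part in these differences was not tested.

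Genes of the TNF response made up part of these. Among the 16 NF-κB feedback genes 11 had a different effect at 4 h than unstimulated, 10 of them more negative, and the list median was −1.03 at 4 h, against −0.35 in unstimulated cells. CYLD was at 153 and 151 CPM with SIK3 siRNA at 4 h, against 371 and 310.2 CPM with control siRNA. In unstimulated cells it was at 85.7 and 71.3 CPM with SIK3 siRNA, against 95.95 and 90.4 CPM (difference of effects −0.91 on the log2 scale, adjusted p = 4.94e-07). The groups were apart at both times, by more at 4 h. ICAM1 in unstimulated cells was at 328 and 405 CPM with SIK3 siRNA, against 351 and 424 CPM with control siRNA, which overlap, unlike the values at 4 h given above (difference −1.16, adjusted p = 8.47e-10, and 0.143 without the replicate block). FAS was at 26.6 and 25.3 CPM unstimulated with SIK3 siRNA, against 39.6 and 39.6 CPM (difference −1.17, adjusted p = 1.55e-07). RASSF5 had a log2 difference of −3.71 at 4 h and −1.04 unstimulated (adjusted p of the difference = 3.42e-05). Adhesion receptors had 8 of 15 members with a different effect, all 8 more negative at 4 h, and cytokines 12 of 27, all 12 more negative. Against 30 min, 12 cytokines also had a different effect, 6 of them more positive and 6 more negative, and the list median was 0.12 unstimulated, −0.64 at 30 min and −0.70 at 4 h.

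In antigen presentation 15 of 24 members had a different effect at 4 h than in unstimulated cells and 18 than at 30 min, each of them more negative at 4 h, and the list median was 0.08 unstimulated, 0.16 at 30 min and −0.35 at 4 h. HLA-B in unstimulated cells was at 80.7 and 75.8 CPM with SIK3 siRNA, against 53.2 and 47.6 CPM with control siRNA, and at 30 min at 67.3 and 64.3 CPM, against 43.9 and 45.8 CPM. At both these times it lay higher with SIK3 siRNA, and at 4 h lower, as given above (difference from unstimulated −1.28, adjusted p = 4.09e-08). ALCAM, of the adhesion list, was at 177 and 152 CPM with SIK3 siRNA, against 38.5 and 31.7 CPM in unstimulated cells, and the groups overlapped at 4 h (difference −2.23, adjusted p = 6.91e-12). Interferon-stimulated genes had 18 of 40 with a different effect, 17 more negative. MX1 was at 95.1 and 99.9 CPM with SIK3 siRNA in unstimulated cells, against 13.1 and 10.5 CPM. Its log2 difference was 1.21 at 4 h, against 3.04 unstimulated (adjusted p of the difference = 2.74e-08).

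Some effects were more positive at 4 h. GDF15 was called higher at 4 h, with 1.65 on the log2 scale, and stood at −0.28 in unstimulated cells, with 37.1 and 27.6 CPM, against 48.1 and 30.6 CPM (adjusted p of the difference = 4.96e-08). CCN2 was at 625 and 675 CPM unstimulated with SIK3 siRNA, against 517 and 636 CPM with control siRNA, and overlapped there but not at 4 h (difference 0.93, adjusted p = 1.31e-05). ADAMTS1 rose by 4.38 at 4 h and 2.93 unstimulated (adjusted p of the difference = 5.64e-05). Mitosis genes had a more positive effect at 4 h in 44 of 47 members, with a list median of −2.34 unstimulated, −2.25 at 30 min and −1.66 at 4 h. TOP2A in unstimulated cells was at 55.5 and 51.3 CPM with SIK3 siRNA, against 754 and 753 CPM with control siRNA. Its control level was close at all times, and its SIK3 siRNA level was the highest at 4 h. DNA replication genes had a different effect in 17 of 41 members and Fanconi and recombination genes in 12 of 26, each of them more positive at 4 h.

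**Figure D4:**
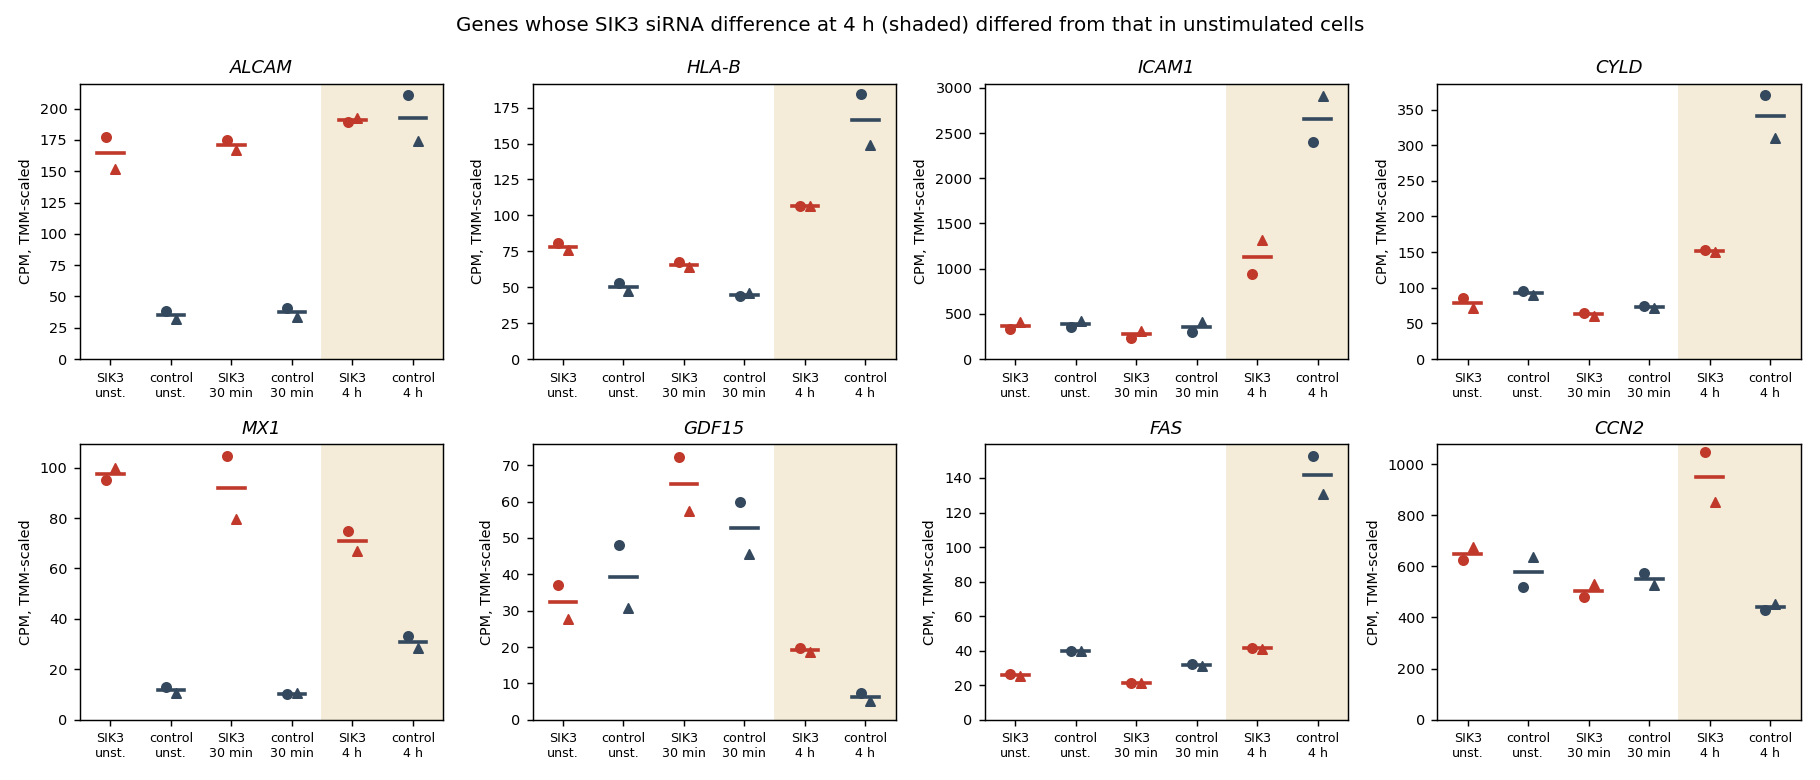
CPM (TMM-scaled, linear axes from 0) of 8 genes in all 12 libraries by siRNA and time in the table names, with circles for replicate 1, triangles for replicate 2, bars for means and the 4 h groups shaded. CYLD, ICAM1 and FAS show a high 4 h control, HLA-B and ALCAM lose or turn their earlier rise with SIK3 siRNA at 4 h, and GDF15 and CCN2 lie above the control without overlap at 4 h only (1046 and 853 CPM, against 430.4 and 452 CPM for CCN2).

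Gene classes were looked at because reads outside annotated genes were more frequent in the SIK3 siRNA libraries at 4 h. Of 12946 protein-coding genes 10.05% were called at least 2-fold higher and 9.555% at least 2-fold lower, at a median of −0.02. Of 3749 genes of all other classes 16.83% were at least 2-fold higher and 4.721% lower, at a median of 0.26 at 4 h, against 0.06 in unstimulated cells. Small RNAs stood out, with 30 of 43 snRNA genes and 41 of 84 snoRNA genes at least 2-fold higher at 4 h. The snRNA median was 0.54 unstimulated, 0.96 at 30 min and 1.37 at 4 h on the log2 scale, and the snoRNA median 0.31, 0.34 and 1.15, so both stood above 0 at all times. Sense-intronic transcripts, which lie within introns of other genes, were at least 2-fold higher in 54 of 172, at a median of 0.75, against 0.14 in unstimulated cells. At 30 min their median was −0.12. The high no-feature share lay in the SIK3 siRNA libraries at 4 h, so its part cannot be told apart from that of siRNA and time. It was not tested. The strand setting of the counting is not given in the sources used here, so sense-intronic and antisense transcripts cannot be told apart from their host genes or partners by these counts. With protein-coding genes alone in the fit, an alternative added after the data were seen, 8753 of 12946 genes were called, 4334 higher and 4419 lower.

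**Figure D5:**
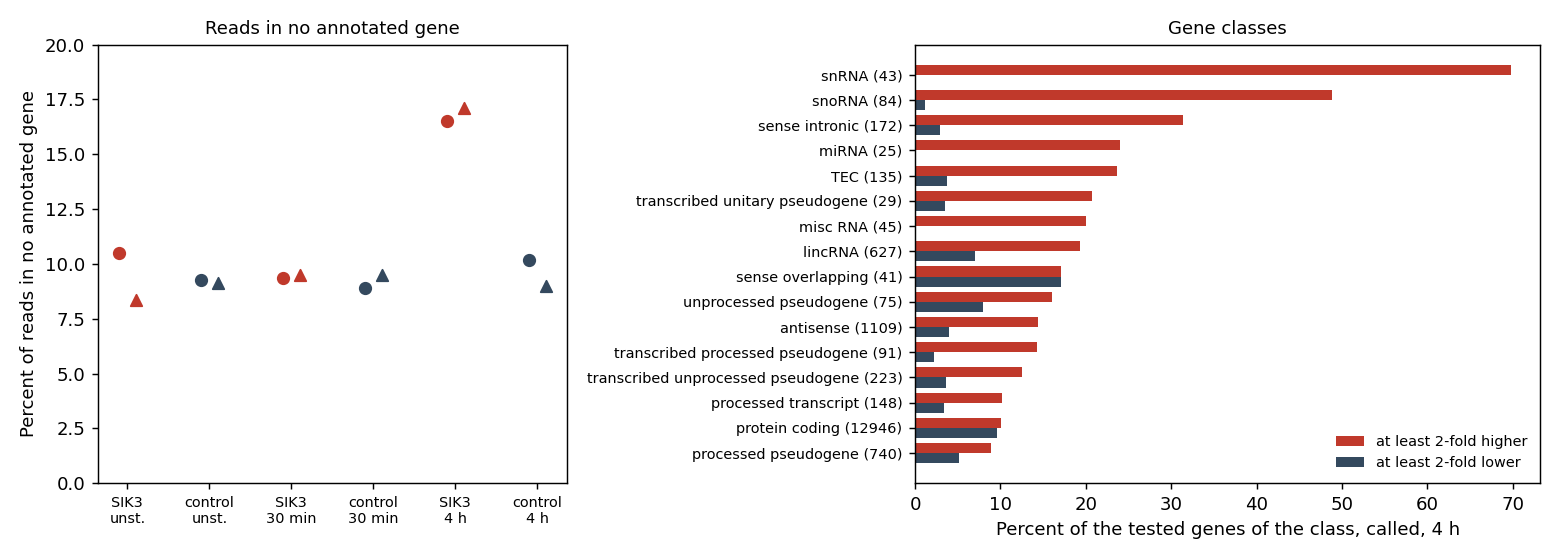
Left, percent of all reads, multimapping ones included, that fell in no annotated gene, for each library by siRNA and time. Circles are replicate 1 and triangles replicate 2. The SIK3 siRNA libraries at 4 h stand at 16.5 and 17.1%, and all others at 10.5% or less. Right, percent of tested genes of each annotated class (number in brackets) called at least 2-fold higher or lower with SIK3 siRNA at 4 h, led by snRNA genes.

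The titles name another pair for this question. Libraries titled SIK3 siRNA with TNF for 4 h are the SIK3 siRNA libraries used above, and those titled control siRNA with TNF for 4 h are named SIK3 and 30min in the tables. This pair shares its SIK3 siRNA libraries with the comparison above, so its values are set beside it only as values. In it 4646 genes (27.8%) were called, 2472 higher (14.8%) and 2174 lower (13%). SIK3 stood at 18.3 and 22.8 CPM with SIK3 siRNA, against 17.3 and 24.03 CPM in the libraries titled control siRNA (−0.01 on the log2 scale, adjusted p = 0.965). The target thus did not differ beyond the replicates in the titled pair. SIK1 stood at −0.55, TRAF1 at 2.54, ICAM1 at 2.05 and SELE at 2.75, against 2.68, −1.62, −1.24 and −5.07 in the pair by table name. SELE was at 0.560 and 1.18 CPM in the libraries titled control siRNA with TNF for 4 h, and at 225 and 174 CPM in those named Scr1 and 4h. List medians kept their sign for the SIK family, EGF ligands and ERK feedback, the urokinase system, and IRF and STAT factors. They also did so for the Hippo pathway, cholesterol synthesis and mitochondrial mRNAs. Most other list medians stood at the opposite sign. Mitosis was at 0.39 (39 members called higher, 0 lower) in the titled pair, against −1.66 in the pair by table name, DNA replication at 0.34 (24 and 0), against −1.23, and recombination and Fanconi repair at 0.43 (15 and 0), against −1.17. Survival genes were at 1.11, against −0.92, NF-κB feedback at 1.05, against −1.03, adhesion receptors at 0.39, against −0.57, and CREB and CRTC targets at −0.61, against 1.44. The direction of the NF-κB, adhesion, survival, cell cycle and CREB results therefore depends on which names are right, and the SIK3 level is lower only in the libraries named SIK3 in the tables.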

How the data were processed

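Each of the 12 libraries was made from total RNA of PANC-1 cells with a ScriptSeq kit, after RNeasy columns and DNase I treatment, per the labels, with 2 biological replicates in each of 6 groups. What the authors deposited is a table of raw read counts per gene for each library. The submitters' processing notes name STAR 2.05b, edgeR and the build GRCh38. The annotation release and the strand setting are not given in the sources used here. The 4 totals of reads outside genes in each table were dropped before the fit, which left 60669 Ensembl identifiers, 3742 of them without a symbol in the name table.

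Groups followed the table names. Genes were kept by filterByExpr with a minimum count of 10 (16695 genes) and scaled by TMM, and edgeR 4.0.16 in R 4.3.3 fitted a quasi-likelihood model to all 12 libraries with 6 groups and the replicate number as a block (5 residual degrees of freedom). A gene was called at a Benjamini-Hochberg adjusted p under 0.05 over all genes. CPM were computed from the reads in genes after TMM. The fit was tested on simulated data. The replicate numbers come from the titles and match the letters B and C of the table names. Deviations of same-numbered libraries from their group means correlated at 0.35 to 0.53 (median 0.421, 15 pairs of groups), so the numbers were kept as pairs. No 2 libraries of a group were alike within counting noise (chi-square per degree of freedom 17.9 to 36.6). With 2 libraries a group, p-values rest on the spread within groups over all 12 libraries, after the replicate block and shared in part across genes. They do not measure the spread between the 4 libraries of the comparison alone. Behind each library stand 13535825 to 22699756 reads in genes.

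The members of the comparison and all gene lists were chosen with earlier results of these data known. Genes are named by rule: the 3 salt-inducible kinases, up to 12 called genes in each direction with the largest fold at a mean of at least 1 CPM, up to 6 called members of each list in each direction by smallest p, up to 6 by largest difference between times, and members not called by role. The selection from these, and the genes in the figures, were made after values were seen, and CDK1 is mentioned for its role only. Alternatives were DESeq2 1.42.0 (size factors and Wald test), limma 3.58.1 voom, library totals, other filters, no block, the 4 libraries alone, each of them left out, an adjusted p under 0.01 and the groups of the titles. Promoters are from RefSeq (GRCh38.p14). Some genes of the lists are not reported here by name. Python 3.11.15, pandas 2.3.3, numpy 2.4.6 and matplotlib 3.10.9 were used for tables and figures.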

Additional observations from a re-analysis of the deposited data

Results flagged for a closer look

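In each of 10 genes the siRNA difference at 4 h differed from that in unstimulated cells by the test of the difference itself (edgeR, Benjamini-Hochberg over 16695 genes), with 4 libraries behind each effect. These were chosen after their values were seen from the 89 of 185 genes named above that differed in this way. The share over all genes tested was 12%. Genes were named in part by the size of a call or of this difference, so the higher share among them is no result. A 4 h effect more negative by −2.67 on the log2 scale was found for RASSF5, by −2.23 for ALCAM, by −1.83 for MX1, by −1.28 for HLA-B, by −1.17 for FAS, by −1.16 for ICAM1 and by −0.91 for CYLD. More positive at 4 h were GDF15 by 1.93, ADAMTS1 by 1.45 and CCN2 by 0.93. Without the replicate block the difference of ICAM1 stood at −1.15 (adjusted p = 0.143).

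Reads in no annotated gene, which no comparison between groups used, made up 16.5 and 17.1% of all reads in SIK3 siRNA replicates 1 and 2 at 4 h, against at most 10.5% in any other library. Per 100 reads in genes they stood at 24.5 and 27.8, against at most 22.2 in any other library. Both SIK3 siRNA libraries at 4 h also had more genes with a count than any control at 4 h. The SIK3 siRNA libraries of the other times held 24096 to 25399. Replicate 1 at 4 h, with 25281, lay within that range, and only replicate 2, with 26796, lay above it.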

How the results depend on the processing

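The 4 h comparison called 9813 genes, and 8314 to 8926 without any 1 of its 4 libraries. With those 4 libraries alone and no replicate block, 5716 were called, and 6596 with no replicate block over all 12 libraries. DESeq2 size factors, library totals, the Wald test of DESeq2, limma voom, either other filter, an adjusted p under 0.01 and protein-coding genes alone left the count within 1.5-fold. The difference from the unstimulated effect was called in 261 genes with no replicate block and in 1117 at an adjusted p under 0.01, against 1996, and in 1283 to 1900 without 1 library. The difference from the 30 min effect was called in 236 and 1259 genes at these settings, against 2280, and in 1386 to 2289 without 1 library, the lowest count of each without control siRNA replicate 1. SIK3 stood between −1.42 and −1.04 without 1 library, was called in every setting that keeps the table names, and was at −0.01 with the titles, which called 4646 genes.

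Of 184 other genes named above, 7 lost their call with no replicate block (CAB39, CCL2, CRTC2, CXCL8, POLD3, SIK2 and SNAI1), and BOK, NFKB1 and PDE4D lost theirs with the 4 libraries alone and no block. With library totals 9 more were called, where the median of all genes stood at 0.13 in place of 0.03. No named gene that was called changed sign under a setting that keeps the table names, while 27 of the 38 that were not called did so in at least 1. The list medians kept their sign over 14 settings except for the SIK family, the IRF and STAT factors, the urokinase system and the mitochondrial mRNAs. One of these settings, an adjusted p under 0.01, uses the main fit, so its medians could not change. Depth limits genes near 1 CPM, where 3 counts make up 0.166 to 0.222 CPM in the 4 libraries before TMM scaling, which the other CPM values include.

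With the conditions of the titles, 115 named genes had the opposite sign, 109 of them called in at least 1 of the pairs. Of these, 88 were called in the titled pair. Called higher with SIK3 siRNA there, on the log2 scale, were APOL6 0.96, BCL2L1 0.79, BIRC3 1.67, BRCA1 0.43, CCL2 1.67, CCL20 2.69, CCL5 1.61, CCNB1 0.22, CD274 2.11, CDK6 0.98, CDKN1A 1.36, CENPF 0.54, CEP55 0.80, CFLAR 1.20, CREB1 0.48, CX3CL1 2.36, CYLD 1.28, ECT2 0.88, EDEM1 0.24, ERAP1 0.17, FANCD2 0.88, FAS 0.96, FN1 0.55, GBP4 1.95, GINS1 0.56 and HDAC9 0.33. Likewise higher were HLA-B 0.70, HLA-F 1.18, HMMR 0.48, ICAM1 2.05, IFIH1 0.45, IKBKB 0.61, IRF1 1.40, ITGA6 0.23, LTB 2.04, MAFF 0.92, MCL1 0.23, MCM2 0.43, MCM7 0.69, MYBL2 0.57, NECTIN2 0.25, NFKB1 1.30, NFKB2 1.23, NFKBIE 1.07, NT5E 0.19, OASL 0.61, PLAU 0.90, PVR 0.38, RASSF5 3.19, RELB 1.06, RRM1 0.30 and SDC4 0.89. Also called higher were SELE 2.75, SPRED1 0.18, STAT5A 1.31, TAP1 0.90, TAPBP 0.30, TNF 0.96, TNFAIP2 1.86, TNFAIP3 1.07, TNFRSF1B 0.34, TNIP1 1.04, TOP2A 0.34, TRAF1 2.54, VCAM1 4.15, VIM 0.69, XIAP 0.41, YAP1 0.16 and ZEB1 0.20. Called lower there were ADAMTS1 −1.08, AREG −0.93, CDKN1B −0.69, CREM −0.42, DUSP1 −0.16, GDF15 −1.74, HSP90B1 −0.16, IFI6 −0.63, LAMA4 −0.56, MMP14 −0.41, MSMO1 −0.44, MX1 −0.37, NR4A1 −1.12, SCG2 −1.72, SIK1 −0.55, SNAI2 −0.78, STK11 −0.27, ULBP1 −0.55 and ZFP36 −0.73. The other 21 were not called in the titled pair, with log2 differences of BCL2L11 0.22, CAB39 0.12, ERAP2 0.10, ETV5 0.12, H4C5 0.13, HUNK 1.06, ITGB4 0.09, MGAM2 0.64, PDZD2 0.98, PIK3R5 1.59, PSMB9 0.27, RAET1L 1.93, RPA3 0.11, TGFA 0.33, ATF4 −0.02, BCL2L2 −0.07, CEND1 −0.09, JUND −0.20, MICA −0.11, POLD3 −0.10 and TP53I3 −0.08. The cause was not tested.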
